A study of Mus musculus with 16 samples.

Results

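The genes described here are those whose mouse symbol is a CD number, that is, Cd followed by digits and at most 1 further letter, with *Cd44* and *Cd47* left aside. CD (cluster of differentiation) numbers are given to molecules of the cell surface that antibodies recognize, and they are how blood cells are told apart in a sorter. The symbols were read from the RNA-seq table of colony-forming unit-erythroid (CFU-E) cells, in which 51 of 15386 genes met the rule, and 48 of these were also among the 13490 genes of the m6A table. *Cd38*, *Cd55b* and *Cd5l* had no row in the latter. The rule uses the form of the symbol and no measured value, but it was set with earlier results of these data known.

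The study deleted *Mettl3*, the gene of the catalytic subunit of the enzyme that writes N6-methyladenosine (m6A) on mRNA, in red-cell precursors of the mouse. RNA-seq compared 3 libraries of control CFU-E cells with 3 libraries of Kit-lo CFU-E cells that lack *Mettl3*, and m6A-seq compared 2 immunoprecipitated (IP) libraries with 2 input libraries of control CFU-E cells. The 6 libraries of proerythroblasts in the series were not analysed here. All cells came from the bone marrow of adult male and female C57BL/6 mice. The deficient cells came from Mettl3 fl/fl EpoR Cre/- mice, in which the EpoR-tdTomato-Cre allele recombines in erythroid cells and in the macrophages of erythroblastic islands. The alleles carried by the control mice were not given in the sources used here.

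CFU-E cells were sorted as live cells negative for the lineage antigens Gr-1, CD11b, CD3e, B220 and Ter119 and for CD16/32, CD41, CD34 and Sca1, and positive for Kit and CD71. The Kit-lo cells are the subset of deficient CFU-E cells with very little Kit on the surface. The groups therefore differed in genotype and in the Kit gate at once, and these cannot be told apart. The labels do not say that replicates came from separate animals, so the p-values measure only the spread between these libraries, which may be technical.

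CD molecules carry out many kinds of work. Tetraspanins are small proteins that cross the membrane several times and gather integrins and other receptors into patches, complement regulators keep blood cells from being attacked by serum complement, and scavenger and vitamin receptors bring lipids, hemoglobin or cobalamin into the cell. Others are adhesion or signaling receptors of lymphocytes and myeloid cells. An erythroid progenitor remodels its surface as it matures: it loses the antigens of early progenitors, gains those of the red cell and keeps the transferrin receptor CD71 while it makes hemoglobin.

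The cells had the transcripts of erythroid progenitors. *Gata1*, an erythroid transcription factor, was at 573 to 692 CPM (the count scaled to the TMM-normalized library size) over the 6 RNA-seq libraries, and the 9 erythroid marker genes summed to 11626 to 12591 CPM in control and 10390 to 11822 CPM in the other group. Most of that sum is *Car2*, a carbonic anhydrase of red cells, which was not called. Of the 9 genes, 5 (*Alas2*, *Ank1*, *Epor*, *Klf1* and *Rhag*) were called higher and 0 lower, beside 12.1% and 9.83% of all genes tested. *Alas2*, which makes the first intermediate of heme, averaged 2.89 CPM in control and 137 CPM in the other group, and the part of these changes in the values of the CD antigen genes was not tested. *Mettl3* itself averaged 123 ± 7.43 CPM (SD, n = 3) in control and 117 ± 9.52 CPM (SD, n = 3) in those labelled *Mettl3*-deficient, with overlapping groups and a log2 fold change of -0.068 (adjusted p = 0.63, edgeR quasi-likelihood test, Benjamini-Hochberg adjustment). The counts are sums over the whole gene and do not show the deleted exons, so they do not check the genotype, which rests on the labels. *Kit*, the gene of the antigen that set the gate, was 10.8-fold lower in the libraries of the deficient group, which are written below as the libraries labelled Kit-lo. Library totals ran from 17429262 to 21329242 counts in the RNA-seq and from 19421059 to 37142742 counts in the m6A-seq.

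Among the 51 genes, a few supplied most of the transcripts. The members summed to 1593 ± 64.7 CPM (SD, n = 3) in control libraries, from 1537 to 1664 CPM, and to 2718 ± 419 CPM (SD, n = 3) in the libraries labelled Kit-lo, from 2440 to 3200 CPM. *Cd24a* alone made up 39.6 ± 2.13% of the sum in control and 54.5 ± 6.62% in the libraries labelled Kit-lo. Together with *Cd81*, *Cd164* and *Cd82* it reached 79.5% and 88.1%. Between 26 and 28 of the 51 genes were above 1 CPM in any library, and 2 to 6 were at 0.

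Per kilobase of annotated exons, *Cd24a* led in control with 245 ± 23.0 CPM per kb (SD, n = 3). *Cd81* followed with 66.6 ± 0.829, *Cd164* with 61.6 ± 1.89 and *Cd82* with 56.1 ± 6.39 CPM per kb, the last 2 of which overlapped within 1 SD. *Cd59a* at 28.9, *Cd320* at 26.5 and *Cd37* at 14.1 CPM per kb came next, and no other member was above 6.96 CPM per kb, the level of *Cd55*. These places depend on the length used. The exons of *Cd63*, for instance, cover 3682 bases together, whereas its longest coding transcript has 1109 bases. In the libraries labelled Kit-lo the order at the top was *Cd24a* at 581 ± 158, *Cd82* at 163 ± 8.52, *Cd164* at 58.2 ± 1.92 and *Cd81* at 53.2 ± 4.77 CPM per kb. *Cd82* had moved from the 4th to the 2nd place and *Cd9* from 2.91 to 13.1 CPM per kb, whereas *Cd63* had gone from 6.14 to 0.502 CPM per kb.

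**Figure D1:**
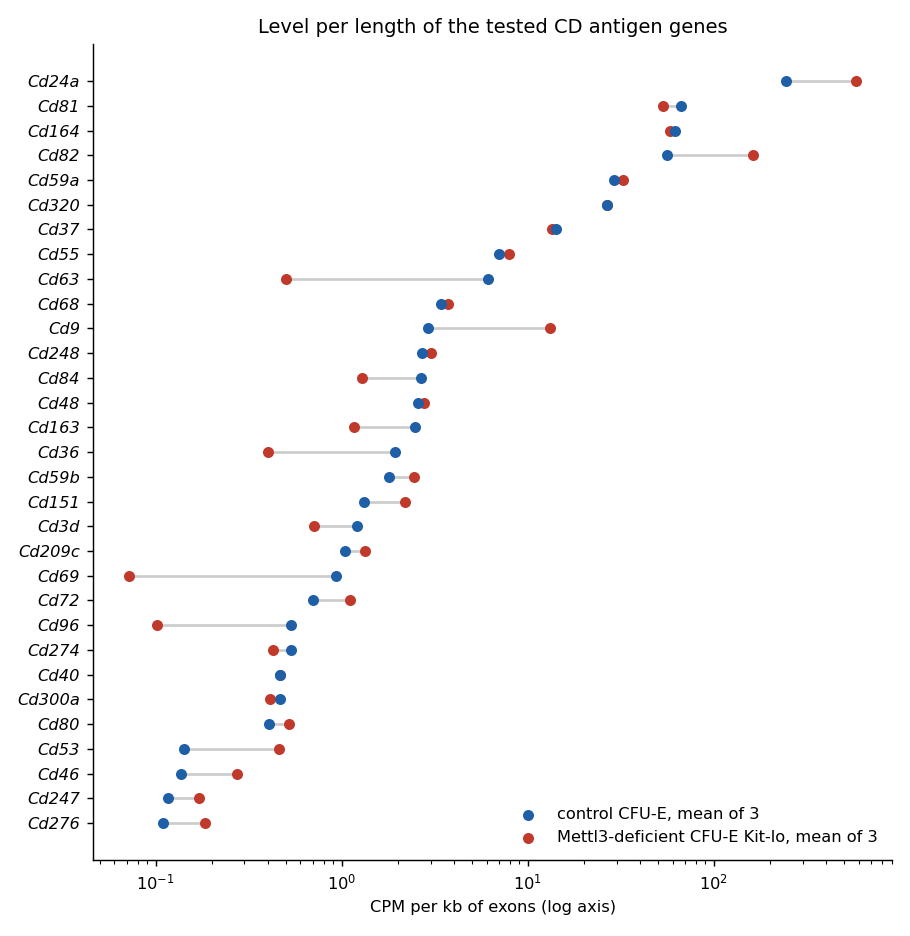
Mean level of each of the 31 tested CD antigen genes in CPM per kb of exons on a log axis, in control CFU-E (blue, mean of 3 libraries) and in the libraries labelled Kit-lo (red, mean of 3 libraries), in the order of the control level. *Cd24a* stands at the top in both groups at 245 and 581 CPM per kb, and the long gaps lie at *Cd82*, *Cd53*, *Cd9*, *Cd63*, *Cd36*, *Cd69* and *Cd96*.

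Of the 51 genes, 31 had enough counts to be tested between the RNA-seq groups (edgeR's filterByExpr). A gene was called when its fold was at least 1.5 in either direction with a Benjamini-Hochberg adjusted p under 0.05 over all 11979 genes tested. *Cd9*, *Cd82* and *Cd24a* rose in the libraries labelled Kit-lo, and *Cd63*, *Cd69*, *Cd96*, *Cd36*, *Cd163* and *Cd84* fell. The 3 rises were 9.68% of the tested members, beside 12.1% of all genes tested, and the 6 falls were 19.4%, beside 9.83% of all genes tested. The other 22 tested members were not called. The groups did not overlap for 13 of the 31 members (41.9%), beside 47.5% of all genes tested. The median log2 fold change came to 0.13 over the tested members and 0.0080 over all genes tested. The kinds of antigen below each hold few tested members, so their counts describe single genes and not the kind. In bulk libraries, fewer cells that express a gene and less RNA of it per cell cannot be told apart.

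**Figure D2:**
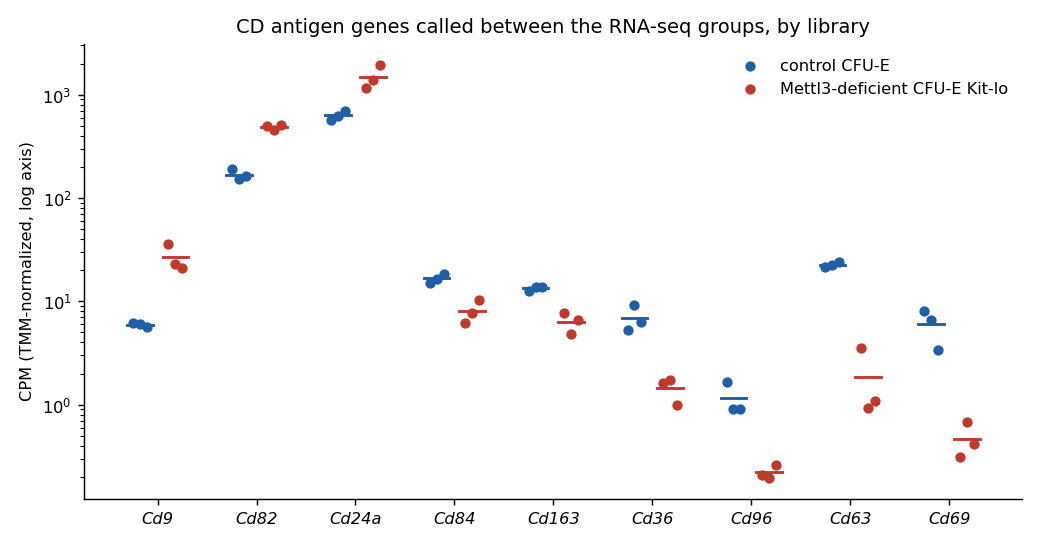
Level of the 9 called CD antigen genes in each RNA-seq library, in TMM-normalized CPM on a log axis, for control CFU-E (blue points) and the libraries labelled Kit-lo (red points), with a line at each group mean. The groups do not overlap for any of the 9 genes, with the 3 that rose at the left and the 6 that fell at the right.

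The tetraspanins had the most called members and also the most tested members, and they moved in both directions. All 7 tetraspanins of the table were tested, of which *Cd9* and *Cd82* rose, *Cd63* fell and 4 were not called, with a median log2 fold change of 0.73. The rises were 28.6% of the 7, beside 12.1% of all genes tested, and the fall was 14.3%, beside 9.83%.

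*Cd82* encodes a tetraspanin of the plasma membrane that was first known as a suppressor of metastasis. It lies on chromosome 2 at chr2:93419111-93463140 (GRCm38, minus strand). Its transcript was at 190, 153 and 163 CPM in control and at 502, 460 and 507 CPM in libraries labelled Kit-lo. Every library labelled Kit-lo lay far above every control library, and the replicates of either group were close together. The difference was 2.91-fold (log2 fold change 1.54, standard error 0.096, adjusted p = 3.83e-06, edgeR with Benjamini-Hochberg adjustment), the lowest adjusted p among the members.

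*Cd9*, a tetraspanin abundant on platelets and on the egg surface, where it is needed for fusion with sperm, was much lower in level. It was at 6.23, 6.01 and 5.61 CPM in control and at 36.3, 23.3 and 20.8 CPM in libraries labelled Kit-lo. The 1st library labelled Kit-lo was the highest, and the lowest of that group was still above all control libraries. The difference was 4.50-fold (log2 fold change 2.17, standard error 0.23, adjusted p = 8.13e-05, edgeR with Benjamini-Hochberg adjustment). *Cd9* lies at chr6:125460266-125494791 (GRCm38, minus strand), and 20.1% of its words of 31 bases, the length by which the quantifier matches reads, also occur in other genes. The gene with the most of them (9.35%) is *Gm26728*, annotated on the opposite strand across the start of *Cd9*. The use of strand in the counting is not stated, so part of the *Cd9* count is uncertain.

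*Cd63* encodes the tetraspanin of late endosomes, lysosomes and secretory granules. It was at 21.7, 22.2 and 23.9 CPM in control and at 3.53, 0.923 and 1.10 CPM in libraries labelled Kit-lo. The control libraries agreed closely, and the 1st library labelled Kit-lo held more than the other two together. The level was 12.2-fold lower (log2 fold change -3.61, standard error 0.42, adjusted p = 0.000149, edgeR with Benjamini-Hochberg adjustment). Without that library the log2 fold change came to -4.48 (adjusted p = 1.37e-06 from the same test). *Cd63* lies at chr10:128900989-128912822 (GRCm38, plus strand) and shares 13.4% of its 31-base words with the processed pseudogene *Cd63-ps*. The pseudogene had 6, 2 and 0 counts in control and 6, 30 and 11 counts in libraries labelled Kit-lo, whereas *Cd63* had 453, 389 and 418 counts in control and 68, 19 and 21 counts in libraries labelled Kit-lo.

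The other tetraspanins stayed within the fold threshold or varied too much for a call. *Cd81*, a tetraspanin found on most cell types, was at 191, 190 and 194 CPM in control and at 165, 138 and 156 CPM in libraries labelled Kit-lo. The groups did not overlap and the adjusted p was 0.0170, but the log2 fold change of -0.32 (standard error 0.088, edgeR with Benjamini-Hochberg adjustment) was under the threshold of 1.5-fold. *Cd37*, a tetraspanin of leukocytes, was at 48.3, 50.6 and 50.4 CPM in control and at 53.2, 42.2 and 46.7 CPM in libraries labelled Kit-lo, which overlapped (log2 fold change -0.071, standard error 0.12, adjusted p = 0.70, edgeR with Benjamini-Hochberg adjustment). *Cd53*, another leukocyte tetraspanin, had 0, 0 and 13 counts in control and 18, 16 and 13 counts in libraries labelled Kit-lo, and *Cd151*, a partner of laminin-binding integrins, averaged 3.60 and 5.97 CPM. Neither passed the test.

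The sialomucins and small antigens held by a glycosylphosphatidylinositol (GPI) anchor or a single membrane span had 1 called member among the 3 tested. This rise was 33.3% of the 3, beside 12.1% of all genes tested. *Cd24a* encodes CD24, a short and heavily glycosylated GPI-anchored antigen found on immature blood cells, red-cell precursors among them. It was at 575, 628 and 694 CPM in control and at 1167, 1374 and 1954 CPM in libraries labelled Kit-lo. The lowest library labelled Kit-lo was well above the highest control library, and the spread within that group was wide, with an SD of 408 CPM around a mean of 1498 CPM. The difference was 2.37-fold (log2 fold change 1.25, standard error 0.16, adjusted p = 0.000319, edgeR with Benjamini-Hochberg adjustment). *Cd24a* lies at chr10:43578284-43584265 (GRCm38, plus strand).

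*Cd164*, a sialomucin of progenitors that also sits in endosomes, had a high level and was not called. It was at 265, 282 and 274 CPM in control and at 256, 252 and 268 CPM in libraries labelled Kit-lo. The groups overlapped, and the log2 fold change came to -0.081 (standard error 0.072, adjusted p = 0.43, edgeR with Benjamini-Hochberg adjustment). *Cd248*, known as endosialin, averaged 7.01 ± 2.01 CPM and 7.90 ± 3.19 CPM (SD, n = 3 each) and was not called.

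*Cd34*, the sialomucin of stem and early progenitor cells, was used in the sort to remove cells and had too few counts for the test. It had 7, 19 and 8 counts in control and 3, 1 and 8 counts in libraries labelled Kit-lo, and the groups overlapped. *Cd3e*, the T-cell receptor chain of the lineage mixture, had 2, 10 and 3 counts in control and 8, 4 and 10 counts in libraries labelled Kit-lo. Both transcripts were thus near the limit of detection in both groups.

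Among the receptors for uptake, 2 of the 5 tested members fell (40%, beside 9.83% of all genes tested). The median log2 fold change of the 5 came to 0.0088. *Cd36* encodes a scavenger receptor that takes up long-chain fatty acids and oxidized lipoproteins. It was at 5.32, 9.21 and 6.35 CPM in control and at 1.61, 1.75 and 0.991 CPM in libraries labelled Kit-lo. All control libraries lay above all libraries labelled Kit-lo, and the level was 4.77-fold lower (log2 fold change -2.25, standard error 0.36, adjusted p = 0.000989, edgeR with Benjamini-Hochberg adjustment). *Cd36* lies at chr5:17781690-17888801 (GRCm38, minus strand) and shares 0 of its 31-base words with another gene.

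*Cd163* encodes the receptor for complexes of hemoglobin and haptoglobin, best known from macrophages. It was at 12.7, 13.9 and 13.9 CPM in control and at 7.64, 4.81 and 6.62 CPM in libraries labelled Kit-lo. The groups did not overlap, and the level was 2.12-fold lower (log2 fold change -1.09, standard error 0.22, adjusted p = 0.00387, edgeR with Benjamini-Hochberg adjustment). *Cd163* lies at chr6:124304656-124330527 (GRCm38, plus strand).

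Macrophage markers were at low levels in both groups. The 8 macrophage markers in the table summed to 5.89 to 8.87 CPM in control and to 1.89 to 6.15 CPM in libraries labelled Kit-lo, which overlapped. Of the 4 that were tested, *C1qa* was called lower, at a mean of 1.30 CPM in control and 0.342 CPM in libraries labelled Kit-lo. *Adgre1*, the gene of the macrophage antigen F4/80, was at 0.0958 to 0.115 CPM in control and at 0 in every library labelled Kit-lo. *Cd68*, the lysosomal glycoprotein of macrophages, averaged 4.27 ± 1.25 CPM and 4.66 ± 1.16 CPM (SD, n = 3 each) and was not called. *Cd5l*, secreted by macrophages, had 8, 7 and 6 counts in control and 0, 7 and 0 counts in libraries labelled Kit-lo and was not tested. Granulocyte markers summed to 25.8 to 39.2 CPM in control and 16.2 to 24.8 CPM in libraries labelled Kit-lo, which did not overlap, with *Mpo* called lower (19.6 and 5.01 CPM) and *Ngp* called higher (0.178 and 1.82 CPM). Markers of mast cells and basophils summed to 1.37 to 5.10 and 0 to 2.92 CPM, those of B cells to 1.49 to 2.12 and 2.08 to 5.20 CPM, and those of endothelial and stromal cells to 0.229 to 0.958 and 0.312 to 1.55 CPM. Among the B-cell markers, *Igll1* was called higher, at 0 in every control library and 0.680 to 0.779 CPM in those labelled Kit-lo. *Igll1* passed the filter only through the latter, and *Rag2*, which was also tested, was not called. The part of the granulocyte markers in the falls of *Cd63*, *Cd69* and the other members was not tested. The part of macrophage RNA in the levels of *Cd163* and *Cd36* was not tested.

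*Cd320*, the receptor that takes up cobalamin bound to transcobalamin, was the receptor for uptake with the highest level and was not called. It was at 75.8, 74.8 and 79.0 CPM in control and at 88.0, 68.9 and 74.2 CPM in libraries labelled Kit-lo. The control libraries lay inside the range of the others, and the log2 fold change came to 0.0088 (standard error 0.11, adjusted p = 0.96, edgeR with Benjamini-Hochberg adjustment), with a sign that changed with the scaling of the libraries. *Cd209f*, a lectin related to DC-SIGN, had 9, 6 and 4 counts in control and 0 in every library labelled Kit-lo, which was at least 2.19-fold lower against a floor of 3 counts per library. It did not pass the filter for the test.

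The regulators of complement were not called in either direction. *Cd59a* encodes the GPI-anchored protein that stops the membrane attack complex from assembling on red cells. It was at 47.2, 57.9 and 51.9 CPM in control and at 62.0, 53.7 and 60.7 CPM in libraries labelled Kit-lo. These overlapped, and the log2 fold change came to 0.17 (standard error 0.12, adjusted p = 0.31, edgeR with Benjamini-Hochberg adjustment). *Cd55*, which speeds the decay of complement convertases, averaged 33.8 ± 7.21 CPM in control and 38.2 ± 7.71 CPM in libraries labelled Kit-lo (SD, n = 3 each). All 4 tested regulators, *Cd46* and *Cd59b* included, had log2 fold changes above 0, with a median of 0.31. *Cd59b* shares 30.1% of its 31-base words with other genes, and *Cd55* shares 11.2% with *Cd55b*, so reads may be split between near copies.

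Of the antigens best known from T and NK cells, 2 of the 4 tested fell (50%, beside 9.83% of all genes tested). *Cd69* encodes a lectin-like receptor that appears early on activated lymphocytes. It was at 8.14, 6.63 and 3.38 CPM in control and at 0.312, 0.680 and 0.417 CPM in libraries labelled Kit-lo. The 3rd control library was the lowest of its group and was still far above every library labelled Kit-lo. The level was 12.7-fold lower (log2 fold change -3.66, standard error 0.48, adjusted p = 0.000318, edgeR with Benjamini-Hochberg adjustment). *Cd69* lies at chr6:129267325-129275436 (GRCm38, minus strand).

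*Cd96*, a receptor of T and natural killer (NK) cells for nectin-like ligands, was called at a lower level, between 0.916 and 1.68 CPM in control and between 0.194 and 0.261 CPM in libraries labelled Kit-lo. The log2 fold change reached -2.38 (standard error 0.59, adjusted p = 0.0111, edgeR with Benjamini-Hochberg adjustment). Without control replicate 1, the highest library, it was -2.03 (adjusted p = 0.0741 from the same test) and no longer called. The other 2 tested antigens of T and NK cells, *Cd3d* and *Cd247*, were not called, with log2 fold changes of -0.77 and 0.54, and the other 6 had too few counts. The 5 markers of T and NK cells in the table summed to 1.72 to 4.12 CPM in control and 2.03 to 3.65 CPM in libraries labelled Kit-lo, and *Lck*, the kinase of T-cell receptor signaling, was at 0 in 2 control libraries. Their part in the values of *Cd69* and *Cd96* was not tested.

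*Cd84*, a receptor of the SLAM family that binds another copy of itself on a neighboring cell, was at 15.1, 16.6 and 18.6 CPM in control and at 6.18, 7.72 and 10.2 CPM in libraries labelled Kit-lo. No library of either group reached the other group. The level was 2.08-fold lower (log2 fold change -1.06, standard error 0.22, adjusted p = 0.00424, edgeR with Benjamini-Hochberg adjustment). *Cd84* lies at chr1:171839697-171890718 (GRCm38, plus strand). Its relative *Cd48*, a GPI-anchored ligand of the same family, averaged 3.07 ± 0.172 CPM and 3.29 ± 0.995 CPM (SD, n = 3 each) and was not called.

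The remaining members were low. Of the 4 tested costimulatory and checkpoint molecules (*Cd40*, *Cd80*, *Cd274* and *Cd276*), 0 were called, and their log2 fold changes ran from -0.32 to 0.77. *Cd72*, the only B-cell antigen tested, had a log2 fold change of 0.65 and shares 38.5% of its 31-base words with *Tesk1*, its neighbor. *Cd300a*, the only myeloid antigen tested, had a log2 fold change of -0.16. Among the 22 members not called, log2 fold changes ran from -0.77 (*Cd3d*) to 1.70 (*Cd53*), and 14 were under 5 CPM in both groups. Of the 22, 16 had a standard error above 0.3, so a change of 1.5-fold (0.58 on the log2 scale) in them is within 2 standard errors and was not detectable here. The 20 members that were not tested had at most 37 counts in any library, and 10 of them were at 0 in at least 1 library.

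**Figure D3:**
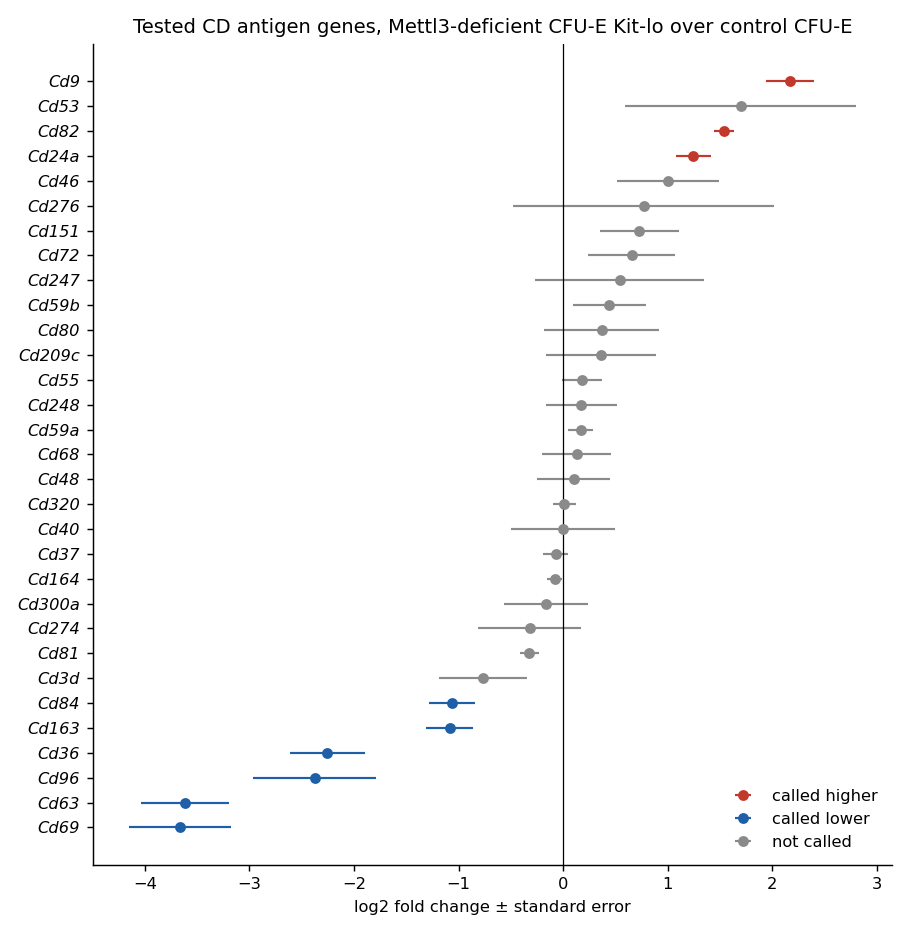
Log2 fold change of the libraries labelled Kit-lo over control CFU-E for the 31 tested CD antigen genes, with the standard error as a bar, colored by call. The 3 called rises reach 2.17 (*Cd9*), the 6 called falls reach -3.66 (*Cd69*), and the uncalled genes with long bars are those of low level.

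To show the sequence before the starts of called genes, the 250 bases upstream of the annotated start were taken from RefSeq (GRCm38.p6), which held 42 of the 51 members, *Cd24a* and *Cd69* not among them. The windows of *Cd36*, *Cd63* and *Cd84*, which fell and whose windows hold 0 annotated exonic bases, are written 5′ to 3′ on the gene's strand. The *Cd36* and *Cd63* windows lie inside those genes, before the start of a shorter transcript.
Cd36, chr5:17835897-17836146, minus strand: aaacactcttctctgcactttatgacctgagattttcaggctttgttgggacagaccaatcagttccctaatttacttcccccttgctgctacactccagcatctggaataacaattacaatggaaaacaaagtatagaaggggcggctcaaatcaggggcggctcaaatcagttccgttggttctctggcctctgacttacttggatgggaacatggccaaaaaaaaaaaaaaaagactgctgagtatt
Cd63, chr10:128909095-128909344, plus strand: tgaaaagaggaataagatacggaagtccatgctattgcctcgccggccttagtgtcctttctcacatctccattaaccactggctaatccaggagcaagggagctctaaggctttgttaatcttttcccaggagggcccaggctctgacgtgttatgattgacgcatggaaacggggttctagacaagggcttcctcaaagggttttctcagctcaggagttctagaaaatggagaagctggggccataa
Cd84, chr1:171839447-171839696, plus strand: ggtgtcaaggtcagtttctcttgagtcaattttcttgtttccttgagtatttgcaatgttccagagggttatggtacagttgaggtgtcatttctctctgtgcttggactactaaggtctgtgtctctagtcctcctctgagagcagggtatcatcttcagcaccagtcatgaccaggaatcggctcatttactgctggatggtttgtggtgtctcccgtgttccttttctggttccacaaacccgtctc

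Capitals would mark the letters AGATAA, a form of the site of GATA factors, or CCNCNCCC, a form of the site of KLF and SP factors, on either strand, and none of these 3 windows held either. Of the genes that rose, *Cd24a* had no window, the whole *Cd9* window of 250 bases is annotated as exonic (of *Cd9* or *Gm26728*), and the 4 *Cd82* windows hold 47 to 190 exonic bases. CCNCNCCC was found in some of these. In *Cd9* it occurred 4 times, overlapping matches counted, and in *Cd82* it lay in 2 of the 4 windows of its annotated starts. The runs of 30 bases below show the *Cd82* matches and only some of the *Cd9* matches in capitals.
Cd82, chr2:93452750-93452779, minus strand: gactttggacCCCCACCCCCcatggagcct
Cd82, chr2:93462588-93462617, minus strand: gttgtgctaagGGGTGTGGccgtttgattg
Cd9, chr6:125494803-125494832, minus strand: aggtgggccgGGGGGCGGGGtcggcatccc
Over all 32851 RefSeq windows of the same length, CCNCNCCC was found in 45.9% and AGATAA in 9.99%, so the matches describe these windows and say nothing of binding.

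The antigens of the sort are mostly encoded under other symbols, and their transcripts were examined beside the members. *Kit*, the stem cell factor receptor that defined the Kit-lo gate, averaged 598 ± 47.1 CPM in control and 55.2 ± 12.4 CPM in libraries labelled Kit-lo (SD, n = 3 each), and the log2 fold change came to -3.44 (adjusted p = 4.31e-07, edgeR with Benjamini-Hochberg adjustment). The groups were sorted by its antigen, so this p-value is no independent test. *Tfrc*, the gene of CD71, averaged 678 ± 53.1 CPM and 619 ± 34.4 CPM (SD, n = 3 each), which overlapped (adjusted p = 0.25 from the same test). Both groups were gated as positive for CD71.

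*Ptprc*, the gene of the leukocyte common antigen of which B220 is a form, fell from 37.4 ± 2.64 to 10.3 ± 4.08 CPM (SD, n = 3 each), and the log2 fold change came to -1.85 (adjusted p = 0.000296, edgeR with Benjamini-Hochberg adjustment). *Itga2b*, the gene of the platelet and progenitor integrin CD41, rose from 2.68 ± 0.309 to 8.24 ± 4.06 CPM (SD, n = 3 each), and the log2 fold change came to 1.62 (adjusted p = 0.00962 from the same test), although both groups were sorted as negative for CD41. The 6 megakaryocyte markers in the table, *Itga2b* among them, summed to 21.4 to 29.0 CPM in control and 21.4 to 29.5 CPM in libraries labelled Kit-lo, with *Gp9* and *Itga2b* called higher and *Gp1ba* called lower. *Fcgr3*, *Fcgr2b* and *Itgam* had too few counts for the test.

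**Figure D4:**
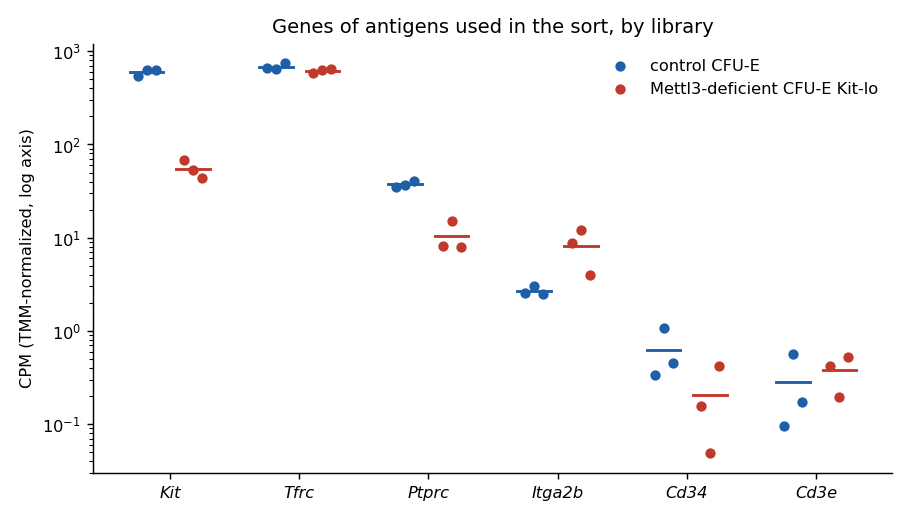
Level in each RNA-seq library of 6 genes whose antigens were used in the sort, in TMM-normalized CPM on a log axis, for control CFU-E (blue) and the libraries labelled Kit-lo (red), with a line at each group mean. *Kit* and *Ptprc* lie lower and *Itga2b* higher in the red libraries with no overlap, *Tfrc* overlaps, and *Cd34* and *Cd3e* lie near or below 1 CPM in both groups.

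A wider list of CD antigens whose genes carry other names placed the members in context. Of 69 listed genes, 62 were in the table and 54 were tested, with 12 higher (22.2%, beside 12.1% of all genes tested), 10 lower (18.5%, beside 9.83%) and 32 not called, and a median log2 fold change of 0.24, beside 0.0080 over all genes. Among those called, the largest rises were those of *Slc4a1* (7.31), the band 3 anion exchanger of the red-cell membrane, *Itgb7* (2.58), an integrin chain, and *Cxcr4* (1.79), the receptor for a chemokine of the marrow stroma. Among those called, the largest falls were those of *Kit* (-3.44), *Ptprc* (-1.85) and *Icam2* (-1.23), an adhesion molecule. The antigen of *Kit* set the gate, so the fall of *Kit* is not independent of the sort. *Kit* is counted in the 10 falls above and in the 5 falls of the receptors below. Carriers of red-cell antigens rose in 5 of 13 tested (38.5%) and fell in 1 (7.69%), and cytokine and growth factor receptors rose in 1 of 15 tested (6.67%) and fell in 5 (33.3%), to be read against the same shares over all genes. Markers of early progenitors summed to 192 to 217 CPM in control and 28.5 to 35.0 CPM in libraries labelled Kit-lo, where *Gata2* and *Myb* were called lower. Most of the control sum is *Myb* (157 CPM in control and 22.1 CPM in libraries labelled Kit-lo) and *Gata2* (34.7 and 2.27 CPM). The other tested markers, *Hoxa9* and *Meis1*, were not called. The part of the falls of *Gata2* and *Myb* in the values of the CD antigen genes was not tested.

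The m6A-seq asked which transcripts of control CFU-E cells the anti-m6A antibody enriched over input. A gene was called higher in IP when its log2 fold change was above 0, and lower when it was below 0, with an adjusted p under 0.05. Of the 48 members in the table, 32 were tested. *Cd80* was called higher (3.13% of the tested members, beside 7.90% of all 11447 genes tested), and 0 members were called lower by edgeR, beside 7.86% of all genes tested. At an unadjusted p under 0.05 in edgeR, 2 members were higher and 4 lower, beside 1969 and 1696 of the 11447 genes tested. DESeq2 called 0 members higher and 2 lower (*Cd151* and *Cd79b*), beside 1023 and 1189 of these genes. With the replicate number as a block in edgeR, 3 members were called lower (*Cd151*, *Cd59a* and *Cd79b*), beside 1755 of these genes. With the size factors of DESeq2, 1 member was called lower (*Cd79b*), beside 1018 of these genes. The median log2 fold change over the tested members was -0.11, beside 0.056 over all genes tested.

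*Cd80* encodes a ligand of CD28 and CTLA4 on antigen-presenting cells. It had 1 and 0 counts in the input libraries and 60 and 13 counts in the IP libraries. The groups did not overlap, as for 60.9% of all genes tested, but the input held 1 count in all. *Cd80* thus passed the filter for the test only through the IP libraries, where it was high. Its call and adjusted p depend on that. The ratio of the pooled rates of IP and input was 48.0, with an exact 95% counting interval of 8.34 to 1920, which covers counting error only. The adjusted p was 0.00765 (edgeR quasi-likelihood test, Benjamini-Hochberg adjustment) at a fitted log2 fold change of 5.20 (standard error 1.02), a value that depends on the prior count. It was 7.83 without input replicate 1 and 4.46 without input replicate 2, and without IP replicate 1 *Cd80* did not pass the filter. In the RNA-seq, *Cd80* was at 1.26 to 1.89 CPM in control and at 0.678 to 2.72 CPM in libraries labelled Kit-lo, and was not called.

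The 9 members that were called in the RNA-seq were all tested in the m6A-seq and 0 of them was called. Over all genes tested, 7.90% were called higher and 7.86% lower, and a set of 9 is too small to tell 0 from these shares. Their log2 fold changes of IP over input ran from -1.82 (*Cd96*) to 0.44 (*Cd36*). *Cd82* was at 322 and 357 CPM in input and at 243 and 282 CPM in IP (log2 fold change -0.37, standard error 0.21, adjusted p = 0.26, edgeR with Benjamini-Hochberg adjustment). *Cd24a* was at 143 and 107 CPM in input and at 98.7 and 88.6 CPM in IP (log2 fold change -0.41, standard error 0.23, adjusted p = 0.24 from the same test). For both genes each IP library lay below each input library, which did not pass the test. With 2 libraries per group such separation is common: it held for 22 of the 32 tested members (68.8%), beside 60.9% of all genes tested.

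The highest member by level in the m6A-seq was *Cd81*, at 543 and 528 CPM in input and at 677 and 633 CPM in IP (log2 fold change 0.29, standard error 0.21, adjusted p = 0.38, edgeR with Benjamini-Hochberg adjustment). Both IP libraries were above both input libraries, and the groups were likewise apart, in either direction, for 60.9% of all genes tested. Among the 31 members not called, the lowest adjusted p was 0.0526, that of *Cd79b*, a chain of the B-cell receptor, at 2.20 and 2.87 CPM in input and 0.719 and 1.11 CPM in IP. *Cd40*, a receptor of the tumor necrosis factor family, had the highest log2 fold change among them, 1.70 (standard error 0.70, adjusted p = 0.12 from the same test), on 7 and 2 input counts and 27 and 16 IP counts. The IP experiment has no deficient libraries among the data analysed here, so it gives no change of m6A with genotype.

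**Figure D5:**
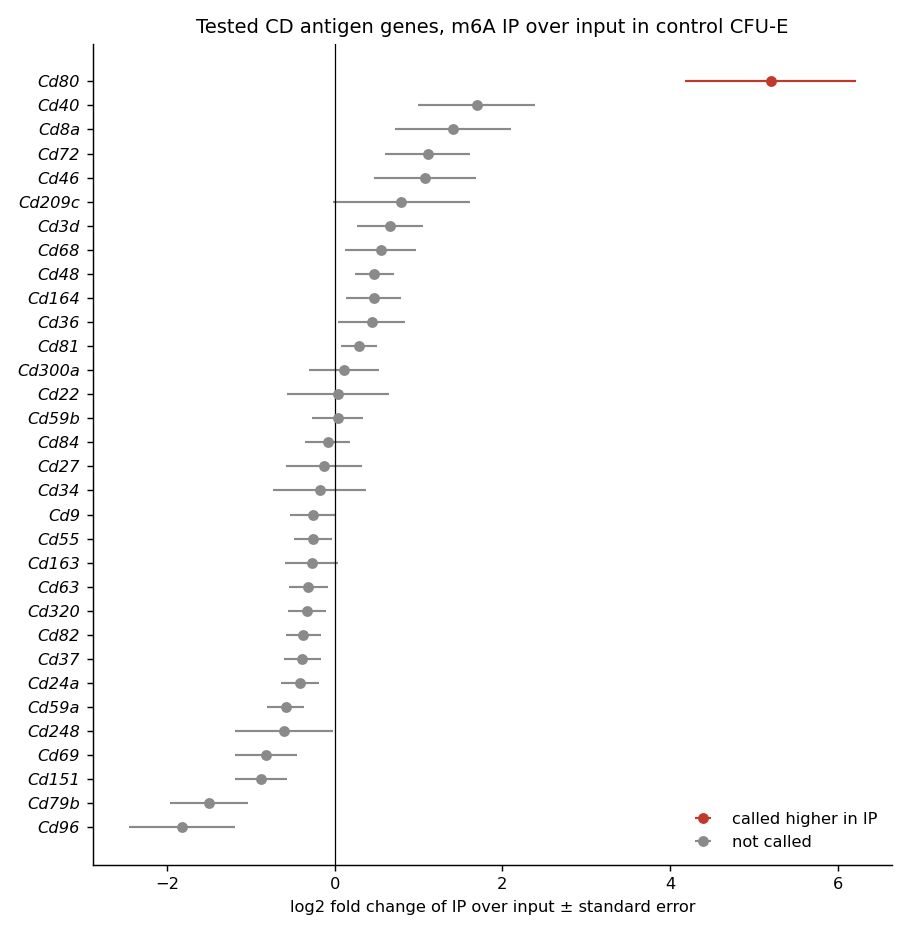
Log2 fold change of IP over input in control CFU-E for the 32 tested CD antigen genes, with the standard error as a bar, colored by call. *Cd80* at 5.20 stands alone at the top with a long bar, and the other 31 genes lie between -1.82 and 1.70.

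Control CFU-E cells gave different levels of some members in the 2 kinds of library, which are separate samples, made with different protocols and normalized separately, so the values are set side by side without a test. *Cd164* averaged 274 CPM in the RNA-seq control libraries and 29.2 CPM in the m6A input, and *Cd24a* 632 and 125 CPM. *Cd81* averaged 192 CPM in the RNA-seq and 535 CPM in the input, and *Cd48* 3.07 and 27.3 CPM. Over the 27 members tested in both, the ratio of input to RNA-seq had a median of 0.862 and ran from 0.0147 (*Cd80*) to 8.90 (*Cd48*).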

How the data were processed

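In either experiment, the authors trimmed reads in fastp 0.23.4, quantified transcripts with kallisto 0.48.0 on mm10 (the processing notes also name GRCm39), summed them to genes with tximport and deposited expected counts per gene, 1 column per library, not normalized. All deposited values were whole numbers. RNA-seq libraries used Smart-seq2 and m6A libraries used SLIM-seq with molecular identifiers, whose use in counting is not given in the sources used here. Replicate error, not depth alone, sets the precision.

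Tests used edgeR 4.0.16 under R 4.3.3 (TMM, filterByExpr, glmQLFit, glmQLFTest), 1 fit per experiment over all its genes without a block, and DESeq2 1.42.0 as an alternative. The study used DESeq2 with a TPM filter. Standard errors are the absolute log2 fold change over the square root of F. Levels per kb divide CPM by the union of exons in GENCODE M21. Named are members called at 5 CPM or more in a group (each library), called members below it, the 5 uncalled tested members of highest mean, members called in m6A, *Cd34* and *Cd3e*, and of the other antigens the genes of the gate and the 3 largest rises and falls. *Cd209f*, *Cd5l* and uncalled members beyond these were named after their values were seen. The members and lists were chosen with earlier results of these data known. On simulated counts, edgeR recovered 199 of 200 genes changed by 1.5 on the log2 scale among 11780 in the RNA-seq design (5 false calls) and 174 of 200 among 11215 in the m6A design (9 false calls). The changed genes were drawn only from those with higher counts, and all genes were given a common dispersion. The recovery therefore does not describe the many members of low level. Alternatives were DESeq2, other normalizations, no filter, no fold threshold, a replicate block and each library left out. Correlations of same-numbered libraries' deviations were 0.034, -0.017 and -0.072 for RNA-seq and 0.21 for m6A-seq. Those for RNA-seq showed no pairing by number, but 3 libraries per group are too few to exclude it. Whether the numbers pair IP with input is not shown by 2 pairs or stated in the labels. No group reaches 4 libraries, so outlier libraries were not tested. Figures came from matplotlib 3.10.9 under Python 3.11.15.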

Additional observations from a re-analysis of the deposited data

How the results depend on the processing

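The 3 rises and 6 falls were called for the same 9 members with DESeq2, with its size factors, with library sizes alone, with upper-quartile normalization and with a replicate block. With each library left out, rises numbered 3 to 4 and falls 5 to 7: *Cd96* was lost without control replicate 1 (log2 fold change -2.03), *Cd53* was added without control replicate 3, and *Cd22* and *Cd74* were added without Kit-lo replicate 3. Without the filter *Cd209f* was added, and without the fold threshold *Cd81*. Calls among the antigens under other symbols numbered 18 to 27 over the alternatives, beside 22. The single m6A call became 0 with DESeq2, where the adjusted p of *Cd80* was NA (log2 fold change 5.37), and 0 to 1 with a library left out. Members lower in IP went from 0 to 2 with DESeq2, 1 with its size factors (*Cd79b*), 3 with the replicate block (*Cd151*, *Cd59a* and *Cd79b*) and 0 to 2 with a library left out. Over all 11447 genes tested, those lower in IP went from 900 to 1189 with DESeq2, 1018 with its size factors and 1755 with the replicate block. The cause was not tested. The log2 fold change of *Cd320*, 0.0088, was -0.028 with the upper quartile, -0.0089 without the filter and -0.10 to 0.11 with a library left out, and that of *Cd37*, -0.071, was -0.17 to 0.031 with a library left out, above 0 without Kit-lo replicate 2. No adjusted p of either was under 0.05. Scaling shifted the median log2 fold change of all genes in the m6A-seq from 0.056 to 0.21 with library sizes alone and 0.18 with the upper quartile, and the share of higher among all calls from 50.1% to 60.6% and 65.8%. Calls over all genes in the m6A-seq went from 1804 to 3538 with the replicate block.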
